A study of Homo sapiens with 8 samples.

Results

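The clustered histone genes are the genes of the replication-dependent histones, which lie close together in the HIST1 cluster on chromosome 6 and the smaller HIST2, HIST3 and HIST4 clusters. They were taken as every row whose name starts with HIST1H, HIST2H, HIST3H or HIST4H and whose mean deposited log2 value over the 8 libraries was at or above 0. Of 71 rows with such a name, 53 passed, out of 14665 genes that passed the same minimum. By class these are 5 H1, 15 H2A, 14 H2B, 8 H3 and 11 H4 genes, and by cluster 41 belong to HIST1, 10 to HIST2 and 2 to HIST3. The name HIST2H2AA4 occurs on 2 rows, told apart here by strand; the minus-strand row has the span of HIST2H2AA3 in GENCODE release 29. RNA came from K562, a human chronic myeloid leukaemia line with erythroid features, and all 4 groups carried dCas9-KRAB, a dead Cas9 joined to a repressor domain that silences the gene a guide points to. The groups, with 2 libraries each, were untransduced cells without a guide, cells with the control guide sgAAVS1 (a site in a safe-harbour locus), and cells with sg1-IRF2 or sg2-IRF2, which both target the transcription factor gene IRF2. Cells with a guide were harvested 7 days after transduction, and no day is given for untransduced cells. Total RNA was depleted of ribosomal RNA rather than selected for poly(A), so histone transcripts without a poly(A) tail were kept.

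Replication-dependent histone genes supply the core histones H2A, H2B, H3 and H4 and the linker histone H1 during S phase, when new DNA is wrapped into chromatin. Their transcription depends on NPAT, with HINFP at H4 genes and POU2F1 at H2B genes, and their mRNAs end in a short stem-loop, bound by SLBP and cut with the U7 small nuclear RNP, in place of a poly(A) tail. IRF2 is best known as a repressor and activator at interferon-responsive promoters, and it has also been described as a factor that binds an H4 gene promoter.

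The stem-loop is shown first, because it sets these transcripts apart in total RNA. A stem-loop motif of 16 bases, opening with GG, holding CTTTT and closing with CC, was searched on the sense strand of GENCODE release 29 transcripts and found for 26 of the 53 members, in 22 of them within the deposited span of the row. Of all 53 rows 38 have a length that divides by 3, as coding lengths do, and no match says only that the motif is not in these transcripts. In the lines here the stem-loop is in capitals and the bases after it are in lower case.
HIST1H2AG: GGCTCTTTTCAGGGCCacccacgtct
HIST1H2BD: GGCTCTTTTAAGAGCCacgcatgttt
HIST1H2BF: GGCTCTTTTAAGAGCCacccactttt
HIST1H3H: GGCTCTTTTCAGAGCCacccacatgc
HIST1H4E: GGCCCTTTTCAGGGCCgcccacagtt
HIST1H4I: GGCCCTTTTTAGGGCCcctaagcttt
HIST2H4A: GGCCCTTTTTAGGGCCgaccacttgc
The 3 H4 genes have a stem that opens with GGCCC, and the H2A, H2B and H3 genes shown open with GGCTC. On hg38, all on the plus strand, the capitals lie at chr6:27133515-27133530, chr6:26158587-26158602, chr6:26199968-26199983, chr6:27810516-27810531, chr6:26205001-26205016, chr6:27139654-27139669 and chr1:149833032-149833047, in the order of the lines. For HIST1H2BF and HIST1H4E this is outside the deposited span of the row.

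Promoters are shown because the histone classes differ in promoter letters while their values varied together across libraries. RefSeq promoters (GRCh38.p14) were matched for 48 members, and the 250 bases before the start were searched on both strands. The octamer ATTTGCAT, the site of POU2F1, was in 10 of 14 H2B and 9 of 13 H2A promoters and in none of the H1, H3 or H4 promoters, against 1.63% of all 35116 promoters. Several H2A and H2B genes are neighbours on opposite strands, and their windows cover nearly the same bases. An example is HIST1H2BC (chr6:26123927-26124176) and HIST1H2AC (chr6:26123922-26124171). A match in such bases is counted for both genes, so the H2A and H2B counts are not independent. The H4 element core GGTCCG was in all 9 matched H4 promoters and in 3 of the other 39, against 9.43% of all promoters. CCAAT was in 1 of 9 H4 promoters and in every matched promoter of the other classes (32.01% of all promoters), and TATAAA was in 31 of the 48 (10.72%). For the interferon regulatory factor motif only 1 form was searched, GAAA repeated after 2 free bases. It was in 2 of the 48, both of H3 genes, against 3.02% of all promoters. Other spacings, such as 3 bases, were not searched, so no match does not show that a related site is absent. The HIST2H4A stretch printed below holds the form with 3 free bases on the opposite strand (tttcggttttc as printed), left in lower case. How many other promoters hold that form was not counted. In 3 of the 48 promoters matches of different motifs share bases. The 100 bases before the start of 3 H4 genes and 2 H2B genes follow, with matches of these motifs in capitals.
HIST1H4E: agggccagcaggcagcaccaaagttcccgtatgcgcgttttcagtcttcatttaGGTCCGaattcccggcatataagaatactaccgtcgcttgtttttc
HIST1H4I: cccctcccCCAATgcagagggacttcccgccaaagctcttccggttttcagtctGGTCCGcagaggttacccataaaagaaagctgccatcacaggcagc
HIST2H4A: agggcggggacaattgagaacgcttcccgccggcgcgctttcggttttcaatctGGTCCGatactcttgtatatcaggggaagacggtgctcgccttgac
HIST1H2BJ: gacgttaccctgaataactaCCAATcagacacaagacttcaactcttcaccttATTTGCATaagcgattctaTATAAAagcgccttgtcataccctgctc
HIST1H2BK: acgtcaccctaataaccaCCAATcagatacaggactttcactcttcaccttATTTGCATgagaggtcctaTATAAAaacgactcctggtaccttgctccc
They lie at chr6:26204510-26204609, chr6:27139182-27139281 and chr1:149832557-149832656 on the plus strand, and at chr6:27132796-27132895 and chr6:27146856-27146955 on the minus strand. In the 3 H4 promoters the element core begins 46 bases before the start, and HIST1H4I is the matched H4 gene with a CCAAT. The RefSeq start of HIST1H4I lies inside its deposited span. A match is a description of letters and does not show binding.

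Reads over the listed genes ran from 5248359 to 6738348 per library, lowest and highest in the 2 sgAAVS1 libraries. IRF2 itself had 271 and 268 (untransduced), 196 and 291 (sgAAVS1), 4 and 8 (sg1-IRF2), and 22 and 21 reads (sg2-IRF2), and fell against sgAAVS1 by 4.51 ± 0.18 (SE) on the log2 scale (limma, adjusted p = 2.55e-16). All 16 genes of an erythroid list had reads, as the K562 label asks, and CD2 and MS4A1 of the lymphoid list and KRT5, KRT14 and COL3A1 of the adherent line list were at 0 reads in every library. The members took 0.213% to 0.242% of the reads. In bulk RNA, a change in the share of cells in S phase and a change in histone RNA per cell cannot be told apart.

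Among linker histones, HIST1H1C (chr6:26055787-26056428) had the highest level, with deposited log2 values of 7.03 and 7.10 (untransduced), 7.29 and 7.02 (sgAAVS1), 7.24 and 7.15 (sg1-IRF2), and 7.01 and 7.07 (sg2-IRF2). The sgAAVS1 values overlap those of each other group, and the highest value and a value near the lowest are both from sgAAVS1. Both sg1-IRF2 libraries were above both untransduced and both sg2-IRF2 libraries. HIST1H1E followed at group means of 6.67 to 6.83 and HIST1H1B at 5.66 to 5.98. HIST1H1T, the testis linker histone, was the lowest H1 gene that passed, with 15 to 38 reads per library. Per length, HIST1H1C had 1.16 reads per base on average over the libraries, the highest of all members, and HIST1H1E 0.875.

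In H2A the highest levels were in HIST1H2AG and HIST1H2AC. HIST1H2AG had 7.17 and 7.27 (untransduced), 7.37 and 7.25 (sgAAVS1), 7.41 and 7.38 (sg1-IRF2), and 7.24 and 7.26 (sg2-IRF2). HIST1H2AG was highest in both sg1-IRF2 libraries and lowest in an untransduced library. HIST3H2A, the highest gene of HIST3, lies on chromosome 1 away from the other clusters and had group means of 5.94 to 6.05. In H2B the highest were HIST2H2BE, HIST1H2BN and HIST1H2BJ. HIST2H2BE had 7.08 and 7.06, 7.19 and 7.15, 7.21 and 7.25, and 7.15 and 7.20 in the same order of groups. HIST2H2BE was lower in both untransduced libraries than in the other 6. Per length the H2A genes reached 0.672 and the H2B genes 0.930 reads per base.

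HIST1H3H, HIST1H3J and HIST1H3B led the H3 class, with mean log2 values up to 6.83. HIST1H4I, HIST1H4E and HIST1H4C led H4, with mean log2 values up to 5.71. The class median of the mean log2 value was 5.83 for H1, 5.73 for H2B, 5.41 for H2A, 4.94 for H3 and 4.85 for H4. These values are not per length, and per length the class medians were 0.450 reads per base for H1, 0.436 for H2A, 0.407 for H2B, 0.392 for H3 and 0.247 for H4. By cluster, the medians of the mean log2 value were 5.54 in HIST1, 5.35 in HIST3 and 3.12 in HIST2.

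**Figure D1:**
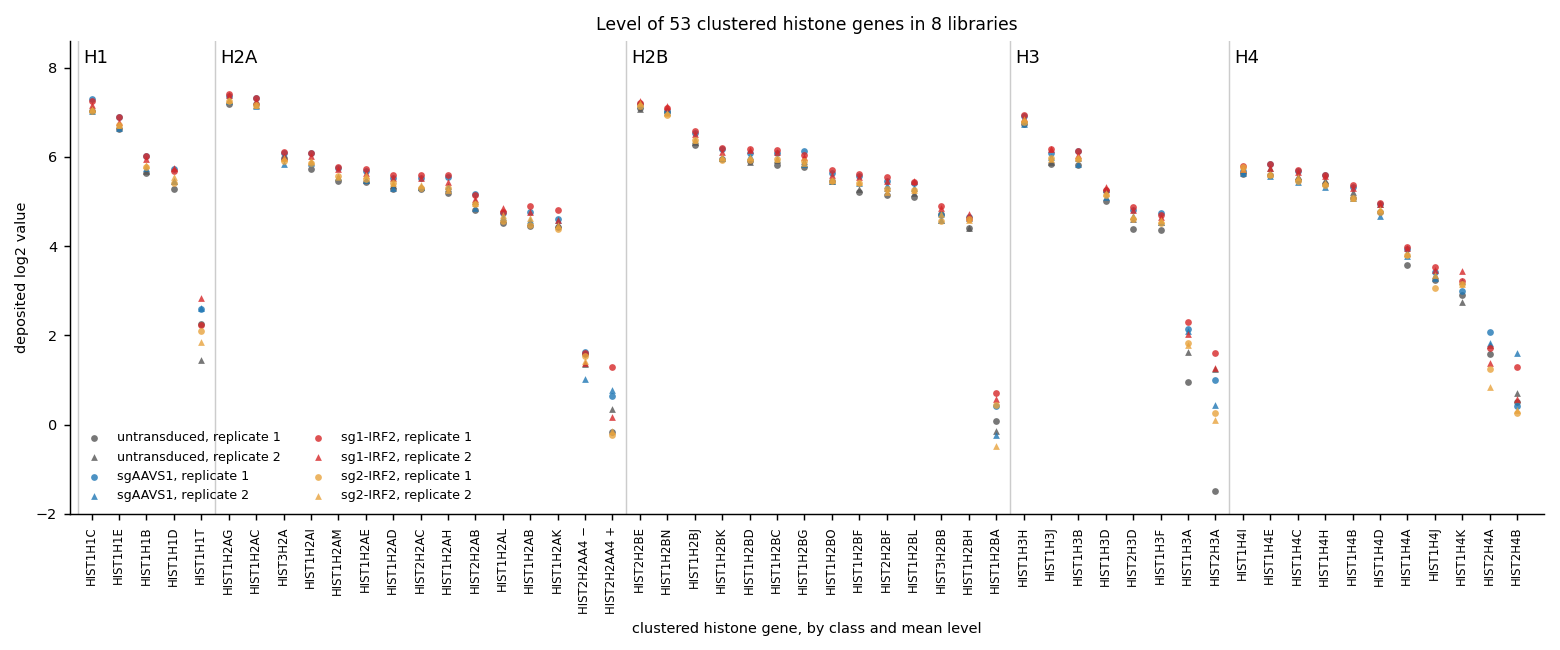
The deposited log2 value (y axis) of each of the 53 clustered histone genes (x axis, by class and mean level) in the 8 libraries; colours are groups, circles replicate 1 and triangles replicate 2. The 8 values of a gene lie close together except in the genes with few reads, such as HIST2H3A, which ran from 2 to 15 reads.

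Several members are hard to tell apart by sequence. In 14 of the 53, at least 0.5 of the 50-base stretches of the GENCODE transcripts inside the deposited span also occur in another gene, and 19 share none. Genes annotated over the same bases, on either strand, count as another gene here, so a share can reflect overlap and not a copy elsewhere. HIST2H3A, HIST1H4K and the minus-strand HIST2H2AA4 share 100%, and HIST2H4A (97.5%) and HIST2H4B (97.2%) are near copies of each other, so their reads are uncertain. HIST1H3D and HIST1H2AK also share 100%, but HIST1H3D lies wholly within AL031777.3 and HIST1H2AK wholly opposite HIST1H2BN. Their reads are uncertain too, and overlap and copies were not separated. Exons of 7 members lie opposite another gene, for example HIST1H2AK opposite HIST1H2BN and HIST2H4A opposite HIST2H3C. On the same strand 6 members overlap another gene, such as HIST1H3J with HIST1H2AM, and the sources used here do not give whether the counting used strand.

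The minimum left out 18 names. HIST1H2BA, a testis H2B gene, lay just inside it (mean log2 0.17) and HIST1H2AA, a testis H2A gene, just outside (-0.59). Of the 18, 8 had 0 reads in every library, namely HIST1H4F, HIST1H3E, HIST1H3C, HIST1H4G, HIST1H2BI, HIST1H3I, HIST1H4L and HIST4H4, the HIST4 gene. Of these 8, 6 share no 50-base stretch with another gene. Their rows are listed at 0 reads, which allows up to 3 reads per library by counting error alone, and whether they were counted in full was not tested.

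Across libraries the members varied together. The median log2 value of the 53 was 5.27 and 5.31 (untransduced), 5.54 and 5.34 (sgAAVS1), 5.60 and 5.53 (sg1-IRF2), and 5.37 and 5.40 (sg2-IRF2). Both sg1-IRF2 libraries and sgAAVS1 replicate 1 were high, and the untransduced libraries were low. The median of all genes tested lay between 5.54 and 5.69 in the same libraries. The highest library was sg1-IRF2 replicate 1 for 33 of the 53 members (62.3%, against 13.0% of all genes tested), sg1-IRF2 replicate 2 for 10 (18.9%, against 28.8%) and sgAAVS1 replicate 1 for 9 (17.0%, against 16.6%). The share of sg1-IRF2 replicate 2 was thus below that of all genes, and that of sgAAVS1 replicate 1 was near it. The lowest was untransduced replicate 1 for 30 (56.6%, against 17.1% of all genes tested).

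The sgAAVS1 replicates also differed from each other. Replicate 1 was above replicate 2 in 48 of the 53 members, with a median difference of 0.18, and their library totals were 5248359 and 6738348 reads. In the other groups the median difference of replicate 1 and replicate 2 was -0.09 (untransduced), 0.07 (sg1-IRF2) and -0.03 (sg2-IRF2). Of the 3 libraries with the highest member medians, sgAAVS1 replicate 1 and sg1-IRF2 replicate 1 (5748809 reads) had the 2 lowest totals. The third, sg1-IRF2 replicate 2 (6394922 reads), had the third highest total. The factor by which reads were divided in the deposited values was lowest in these 3 libraries (4.51, 4.91 and 5.36, in this order). In the other libraries this factor ran from 5.51 to 5.88. The part of depth and of this factor in the member values was not tested.

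**Figure D2:**
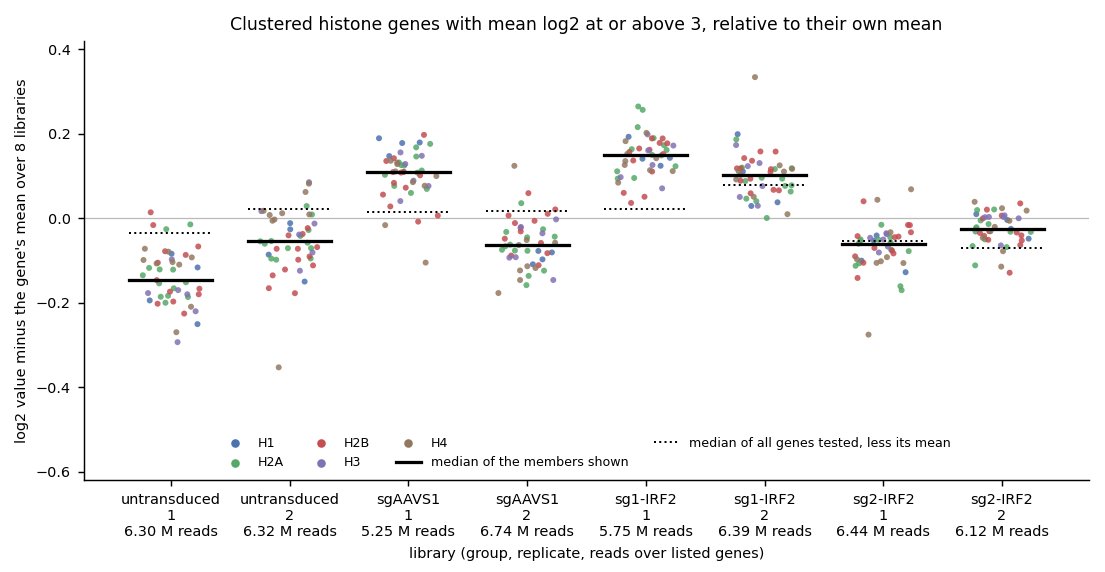
The log2 value of each member minus its own mean over the 8 libraries (y axis) by library (x axis, with the reads over listed genes), for the 45 members with a mean at or above 3; colours are classes, the solid bar their median and the dotted bar the median of all genes tested less its mean. All 45 were above their mean in both sg1-IRF2 libraries, 42 in sgAAVS1 replicate 1 and 1 in untransduced replicate 1.

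The question of the main comparison is whether clustered histone RNA differs when IRF2 is repressed. With both IRF2 guides against sgAAVS1, none of the 53 members was called, at an adjusted p under 0.05 over all genes tested (limma), where 1.59% of all genes tested were called. At an unadjusted p under 0.05 there was 1, HIST2H4A, which was lower, where 10.6% of all genes tested passed in either direction and 6.84% were lower. The median difference of the members was 0.01 on the log2 scale, against -0.02 for all genes tested, with 36 members above 0 and 17 below. Of all genes tested 6148 were above 0 and 8517 below. All IRF2-guide libraries lay above both sgAAVS1 libraries in 1 member (5.81% of all genes tested) and below them in 1 (5.92%). Class medians ran from 0.00 in H1 to 0.03 in H3 and H4. The standard error of a member's difference had a median of 0.07, so that changes of that size were within the error. Without sgAAVS1 replicate 1 the median was 0.10 and without replicate 2 it was -0.08, so its sign rests on these libraries. COL1A1 of the adherent line list fell in the same comparison (-0.32 ± 0.08 SE, limma, adjusted p = 0.0327), with a summed level of that list (linear values, from the deposited log2 values) of 145 to 149 with sgAAVS1 and 128 to 133 with the IRF2 guides; its part in the member values was not tested.

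HIST1H1C and HIST1H2AH had the lowest differences among members with a mean log2 at or above 3 (-0.04 ± 0.06 SE and -0.05), and HIST3H2BB and HIST1H4K the highest (0.12 and 0.13 ± 0.16 SE). HIST1H4K shares all its sequence with another gene.

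Against untransduced cells the members were higher with both IRF2 guides in 52 of 53 cases, with a median difference of 0.15 against 0.01 for all genes tested, 8153 of 14665 of which were above 0. Called at an adjusted p under 0.05 was 1 member of 53, higher, against 2.5% of all genes tested in either direction and 0.982% higher; this count is near the background. At an unadjusted p under 0.05, 18 members were higher (7.68% of all genes tested) and none lower (6.32%). In 14 members all 4 IRF2-guide libraries lay above both untransduced libraries, against 7.28% of all genes tested. By class the median was 0.22 in H1, 0.19 in H3, 0.15 in H2A and H2B, and 0.06 in H4.

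The called member was HIST1H2BF, an H2B gene at chr6:26199559-26199939 on the plus strand. Its values were 5.21 and 5.27 (untransduced), 5.57 and 5.41 (sgAAVS1), 5.61 and 5.55 (sg1-IRF2), and 5.42 and 5.43 (sg2-IRF2), from 209 to 251 reads. Both untransduced libraries were below the other 6. The difference was 0.26 ± 0.07 (SE, limma, adjusted p = 0.0461). It was 0.25 ± 0.08 (SE) for sgAAVS1 against untransduced (limma, adjusted p = 0.0809) and 0.01 for the IRF2 guides against sgAAVS1 (limma, adjusted p = 0.972). The call was lost with total listed reads scaling, with reads plus 2, with voom, with median of ratios scaling, with a replicate block and without the trend (limma, adjusted p = 0.0503, 0.0508, 0.0523, 0.053, 0.0566 and 0.208). It was also lost without either untransduced library (limma, adjusted p = 0.335 and 0.217) and without each of the 4 IRF2-guide libraries (0.0713 to 0.141). The count of called members was 0 without any 1 of these 6 libraries and 6 without either sgAAVS1 library, where 5.61% (without replicate 1) and 5.58% (without replicate 2) of all genes tested were called.

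The control guide was also compared with untransduced cells. For sgAAVS1 against untransduced cells, 8672 of the 14665 genes tested were above 0, with a median of 0.03. Of the 53 members 49 were above 0, with a median of 0.13. None was called by limma, where 4.75% of all genes tested were called, and 15 had an unadjusted p under 0.05, all higher, where 12.5% of all genes tested were higher and 6.55% lower. In 26 members both sgAAVS1 libraries lay above both untransduced libraries, against 27.3% of all genes tested. Without sgAAVS1 replicate 2 the count called was 9, all higher, where 9.93% of all genes tested were called in either direction, and the median was 0.23, and without replicate 1 the median was 0.05. The S phase and DNA replication genes, which stand for cells copying their DNA, had a median of 0.10 in the same comparison with 37 of 40 above 0 and 4 called higher (limma): E2F2, GINS1, GINS4 and POLA1. The erythroid genes, which mark the red cell features of K562, had a median of 0.12 with 15 of 16 above 0 and 2 called higher (limma), the haemoglobin gene HBZ and the haem synthesis gene ALAS2. The summed erythroid level, on the same linear scale, was 2070 to 2173 (untransduced) and 2173 to 2352 (sgAAVS1). The part of both lists in the member values was not tested. This comparison and that of the IRF2 guides share the untransduced libraries.

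**Figure D3:**
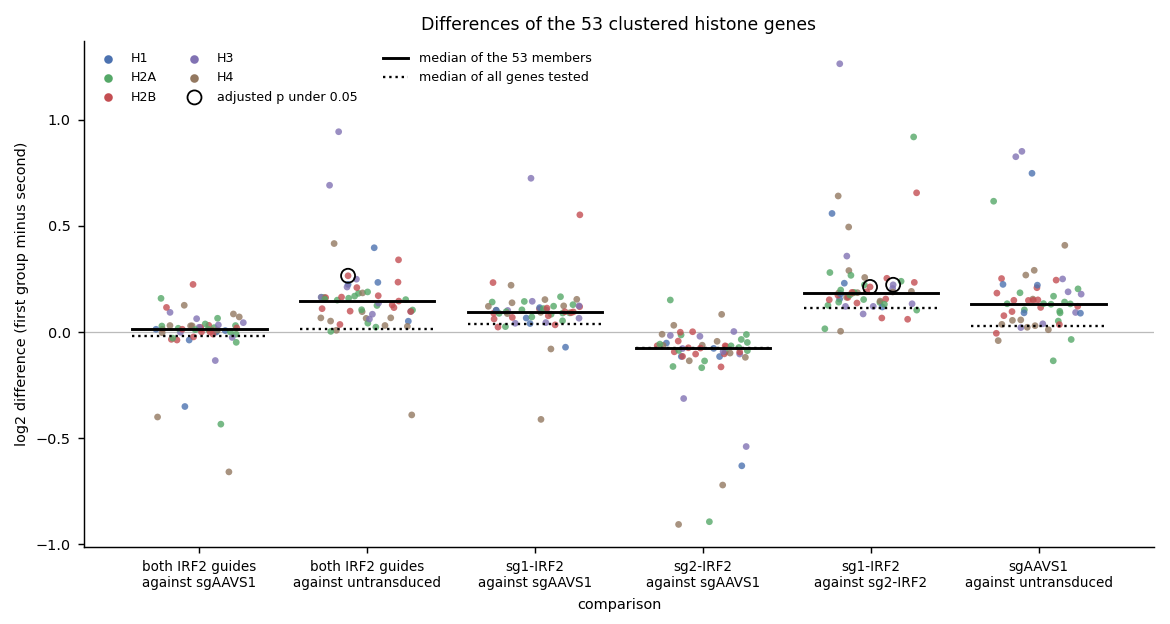
The log2 difference (y axis) of each of the 53 members in the 6 comparisons (x axis); colours are classes, circles mark members with an adjusted p under 0.05, the solid bar is the median of the members and the dotted bar that of all genes tested. Circled are HIST1H2BF against untransduced cells, and HIST1H3J and HIST1H2BD between the guides.

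Each guide gave values on its own side of sgAAVS1. With sg1-IRF2 10145 of the 14665 genes tested were above 0 (median 0.04), as were 50 of the 53 members (median 0.10). With sg2-IRF2 10600 of all genes tested were below 0 (median -0.07), as were 48 of the members (median -0.08). None was called with either guide by limma, where 0.825% and 8.15% of all genes tested were called, and at an unadjusted p under 0.05 there were 2 higher with sg1-IRF2 (5.54% of all genes tested) and 2 lower with sg2-IRF2 (20.4%). Both sg1-IRF2 libraries lay above both sgAAVS1 libraries in 19 members (25.8% of all genes tested) and below them in 1 (8.33%). Both sg2-IRF2 libraries lay below them in 15 (41.1%) and above them in 1 (10.3%). The comparisons share the sgAAVS1 libraries. The sg1-IRF2 median was 0.18 without sgAAVS1 replicate 1 and 0.02 without replicate 2. The sg2-IRF2 median was 0.01 without sgAAVS1 replicate 1 and 0.00 in a voom fit of the recovered reads, and without sgAAVS1 replicate 2 it was -0.17 with 3 members called lower, where 13.1% of all genes tested were called in either direction.

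Between the guides all 53 members were higher with sg1-IRF2, as were 11950 of the 14665 genes tested. In 50 members both sg1-IRF2 libraries lay above both sg2-IRF2 libraries, against 58.3% of all genes tested. The median difference was 0.18, against 0.11 for all genes tested. Called were 2 of 53, both higher, where 13.3% of all genes tested were called and 12.7% were higher. The share of members called is thus below the background. With library medians aligned, which removes the shift of all genes, the members' median was 0.07. None was then called by limma, where 1.58% of all genes tested were called. The count was 15 (28.3%) without sgAAVS1 replicate 1, where 24.6% of all genes tested were called, 16 (30.2%) without sgAAVS1 replicate 2, where 24.7% were, and 0 without any 1 of the 4 IRF2-guide libraries.

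The called members were HIST1H3J and HIST1H2BD. HIST1H3J, an H3 gene at chr6:27890382-27893106 on the minus strand, had values of 5.83 and 5.88 (untransduced), 6.08 and 5.99 (sgAAVS1), 6.18 and 6.18 (sg1-IRF2), and 5.97 and 5.94 (sg2-IRF2). The sg1-IRF2 libraries were above all others, and sg2-IRF2 lay between untransduced and sgAAVS1. The difference between the guides was 0.22 ± 0.07 (SE, limma, adjusted p = 0.0337). Its exons overlap those of HIST1H2AM, which had 0.20 in the same comparison (limma, adjusted p = 0.0985).

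HIST1H2BD, an H2B gene at chr6:26158146-26171349 on the plus strand, had values of 5.91 and 5.88 (untransduced), 6.07 and 6.03 (sgAAVS1), 6.18 and 6.15 (sg1-IRF2), and 5.93 and 5.98 (sg2-IRF2). Its order of groups was the same, with sg1-IRF2 highest in both libraries. The difference between the guides was 0.21 ± 0.07 (SE, limma, adjusted p = 0.0382). Both calls were lost when any 1 of the 4 IRF2-guide libraries was left out (limma, adjusted p from 0.116 to 0.216 for HIST1H3J and from 0.154 to 0.262 for HIST1H2BD). With library medians aligned the adjusted p was 0.465 and 0.531. HIST1H4I and HIST2H2BE had the smallest differences between the guides among members with a mean log2 at or above 3, 0.00 ± 0.08 (SE) and 0.06 ± 0.05 (SE).

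The H4 genes are given apart because IRF2 has been described at an H4 promoter. HIST1H4E, in the HIST1 cluster, had 5.59 and 5.76 (untransduced), 5.83 and 5.58 (sgAAVS1), 5.85 and 5.75 (sg1-IRF2), and 5.59 and 5.62 (sg2-IRF2). The groups overlap, except that both sg1-IRF2 libraries exceed both sg2-IRF2 libraries. HIST1H4I had 5.61 and 5.70, 5.69 and 5.64, 5.79 and 5.72, and 5.78 and 5.73 in the same order. Here all 4 IRF2-guide libraries were above both sgAAVS1 libraries, by 0.09 ± 0.07 (SE, limma, adjusted p = 0.722).

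HIST2H4A, singled out after its values were seen, had 17 and 19 (untransduced), 19 and 21 (sgAAVS1), 16 and 14 (sg1-IRF2), and 14 and 10 reads (sg2-IRF2). All 4 IRF2-guide libraries were below the 4 control libraries in reads and, on the log2 scale, below both sgAAVS1 libraries. The difference against sgAAVS1 was -0.66 ± 0.29 (SE), which was not called (limma, adjusted p = 0.383), and for sg2-IRF2 alone -0.91 ± 0.33 (SE, limma, adjusted p = 0.0887). Its near copy HIST2H4B had 6 and 18 reads with sgAAVS1 and 12, 8, 7 and 7 with the IRF2 guides. At these reads, which cannot be assigned between the copies with certainty, a difference was not detectable. Of the other 9 H4 genes 8 were above or at 0 in the main comparison, and the exception, HIST1H4E, differed by less than 0.01.

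The members are densely covered by reads. Their median was 0.412 reads per base of length, against 0.0637 for all genes with a length, and of the 76 genes with at least 0.5 reads per base 16 were members (21.1%). The reads of HIST1H1C were 740 and 757 (untransduced), 708 and 762 (sgAAVS1), 742 and 763 (sg1-IRF2), and 760 and 745 (sg2-IRF2). They differ by 1.08-fold from lowest to highest, where the library totals differ by 1.28-fold. The read ratio of highest to lowest library was under that of the library totals in 38 of the 53 members.

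Summed over the 16 members with at least 0.5 reads per base, reads ranged 1.13-fold (4749 to 5363), and over all 53 members 1.17-fold. Over the 37 members under it they ran from 7794 to 9355. The variance of the reads over the 8 libraries divided by their mean had a median of 0.704 in the first group and 1.27 in the second, where counting noise alone at equal depth gives about 1 as a floor. Between the replicates of a group, chi-square over the members' reads, divided by its degrees of freedom, came to 0.578 (untransduced), 0.606 (sgAAVS1), 0.366 (sg1-IRF2) and 0.175 (sg2-IRF2), all below the value of about 1 that counting noise gives. The sources used here do not give how duplicate reads were treated, and the part of any such step in these values was not tested. A fit of genes under 0.5 reads per base alone leaves out HIST1H2BF. In it no member was called by limma against untransduced cells, where 2.65% of all genes in that fit were called. Between the guides it called 3 members (8.11%, against 13.9% of all genes in that fit). HIST1H3J and HIST1H2BD were among these (limma, adjusted p = 0.0321 and 0.0367).

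**Figure D4:**
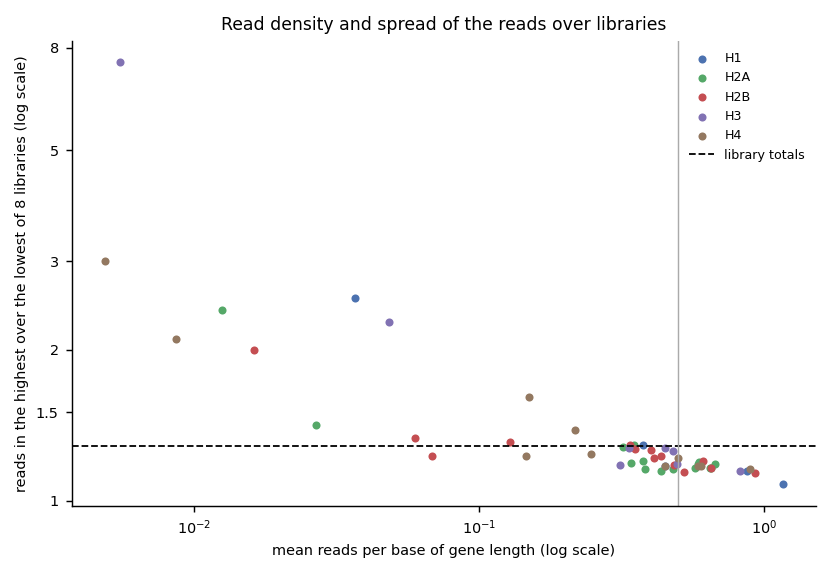
The ratio of reads in the highest to the lowest library (y axis, log scale) against mean reads per base of gene length (x axis, log scale) for the 53 members, coloured by class; the dashed line is the ratio of the library totals, 1.28, and the grey line marks 0.5 reads per base. Members right of the grey line lie under the dashed line, down to HIST1H1C at 1.08, and the members with fewest reads lie above it.

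Genes that make and process histone RNA were compared beside the members. Of 20 such factors 1 was called higher and none lower against sgAAVS1, with a median of -0.04. The called gene was HINFP, the H4 gene activator, with 6.10 and 6.07 (untransduced), 5.83 and 5.97 (sgAAVS1), 6.12 and 6.15 (sg1-IRF2), and 6.19 and 6.21 (sg2-IRF2). Both sgAAVS1 libraries were below the other 6, and the difference was 0.27 ± 0.06 (SE, limma, adjusted p = 0.0138), but 0.08 ± 0.06 (SE) against untransduced cells (limma, adjusted p = 0.582). NPAT, the general coactivator, had -0.04 ± 0.05 (SE, limma, adjusted p = 0.861) and SLBP, the stem-loop binding protein, -0.02 ± 0.06 (SE, limma, adjusted p = 0.952). Between the guides 17 of these 20 factors were above 0, with 6 called higher with sg1-IRF2 and none lower by limma, where 12.7% of all genes tested were called higher.

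Genes of S phase and chromatin assembly were compared in the same fit. Of 40 S phase and DNA replication genes none was called by limma against sgAAVS1 in the main comparison. Between the guides 20 were called higher with sg1-IRF2 and none lower. There, and for the other lists between the guides, the share of all genes tested called higher was 12.7%. The median of the 40 was 0.16, against 0.11 for all genes tested, with all 40 above 0. Against untransduced cells their median with both IRF2 guides was 0.04, with 31 of 40 above 0 and 1 called higher, GINS1. The erythroid genes had 0.08 there, with 14 of 16 above 0 and 1 called higher, ALAS2; the part of both lists in the member values was not tested. Of 20 histone chaperones none was called by limma in the main comparison and 7 were called higher with sg1-IRF2 than with sg2-IRF2, with 19 of 20 above 0. Of 12 replication-independent histone genes, which are also transcribed outside S phase, 8 were tested and none was called by limma in the main comparison; between the guides 3 were called higher, H1FX, H2AFV and H2AFX. Their median against untransduced cells was 0.07 with all 8 above 0, where the clustered genes had 0.15.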

How the data were processed

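Total RNA of 8 K562 dCas9-KRAB libraries was sequenced after ribosomal RNA depletion and directional library preparation, per the labels' protocols. Per the submitters' processing notes, cutadapt, Bowtie2 and hg38 were used; the sources used here give no versions, annotation, counting tool, strand setting or treatment of duplicates. The authors deposited log2 values, which are log2 of each gene's whole reads over a library factor: on the linear scale 100% of the values were whole reads within 0.01 read, and genes without reads stand at 0.9 read. Reads were recovered from them for depth and reads per base; recovered totals ran from 5248359 to 6738348, and counts and floors cover counting error only.

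Genes with a mean log2 at or above 0 (14665 of 35805) were fitted in 1 linear model of 4 groups (limma 3.58.1, R 4.3.3, moderated with a trend; residual df 4, prior df 22.4), two-sided, with Benjamini-Hochberg adjustment over all genes tested, in 6 comparisons; adjusted p under 0.05 is called. No label states that a group's 2 libraries are separate cultures; p-values then reflect only how much libraries vary, and both were kept as replicates. Same-numbered libraries did not deviate together (correlations from -0.08 to 0.22), so numbers were not used as pairs. The fit was tested on simulated data. Length is the smaller of the deposited span and the exonic bases in GENCODE release 29, which matched all 53 members (44 with the same span). Python 3.11.15, numpy 2.4.6, pandas 2.3.3 and matplotlib 3.10.9 were used. The members and lists were chosen with earlier results of these data known. Named members are, by class, the 3 with the highest and the 1 with the lowest mean, the highest of each cluster and all called. Also named are those with the 2 highest and 2 lowest differences of each comparison among members with mean log2 at or above 3. Of each list, genes called in the main comparison are named. NPAT, SLBP, E2F2, GINS1, GINS4, POLA1, HBZ, ALAS2, H1FX, H2AFV, H2AFX and the member HIST2H4A were chosen after their values were seen. Alternatives changed the scaling, filter, pseudocount, trend, test, samples, control group, pairing and single libraries; scaling to total listed reads and keeping only genes under 0.5 reads per base were chosen after seeing the data.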

Additional observations from a re-analysis of the deposited data

Results flagged for a closer look

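HIST1H3J and HIST1H2BD differed between the 2 IRF2 guides under the same contrast with sgAAVS1, by a test of the difference itself (limma, sg1-IRF2 against sg2-IRF2). The difference was 0.22 for HIST1H3J (0.14 with sg1-IRF2 and -0.08 with sg2-IRF2, each against sgAAVS1) and 0.21 for HIST1H2BD (0.12 and -0.09). In both genes the 2 sg1-IRF2 libraries were above both sg2-IRF2 libraries. Between the guides 13.3% of all genes tested were called, so 2 of 53 members is below that background, and the median of all genes tested was 0.11 higher with sg1-IRF2.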

How the results depend on the processing

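Of 242 recomputed counts and medians over the members, 193 stayed close to the value given and 49 moved. With 2 libraries per group, single libraries decide most calls. For both IRF2 guides against untransduced cells, 1 member was called, where 2.5% of all genes tested were called. Counts were 2 with medians aligned (2.52% of all genes), quantile normalization (3.05%) or a minimum mean of 2 (2.93%). No filter gave 3 (1.81%), and only the groups compared gave 6 (11.3% of members, 5.69% of all genes). None was called with median of ratios scaling (2.61%), without the trend (0.368%), in genes under 0.5 reads per base (2.65%) or with a replicate block (2.24%). The count also moved when single libraries were left out. For sg1-IRF2 against sg2-IRF2, 2 were called, 4 with a minimum mean of 2, 21 with only the groups compared, and 0 with medians aligned, quantile normalization, median of ratios, total listed reads, reads plus 2, no trend or voom; leaving out single libraries gave 0 to 16. The members' median of 0.18 between the guides became 0.0716 (aligned), 0.0631 (quantile), 0.0722 (median of ratios), 0.079 (total listed reads), 0.0784 (reads plus 2) and 0.0785 (voom). In these fits the median of all genes, 0.11 as given, was at most 0.01. The cause of the other changes was not tested. The sg2-IRF2 median against sgAAVS1 was 0.0031 with voom. Leaving out single libraries moved the medians to between -0.0829 and 0.1006 (both guides against sgAAVS1), 0.017 and 0.1776 (sg1-IRF2), -0.169 and 0.0106 (sg2-IRF2), and 0.0452 and 0.2268 (sgAAVS1 against untransduced), and the counts to 0 to 3 for sg2-IRF2 and 0 to 9 for sgAAVS1 against untransduced. The replicate block called 2 members between the guides, where 12.3% of all genes tested were called. It called 0 in the other 5 comparisons, where 0.771% to 7.58% of all genes tested were called. The block changed no call but that of HIST1H2BF (limma, adjusted p = 0.0566), and same-numbered libraries share only a number. The 3 calls among the members named by the rule were lost in some fits, and the differences of these 3 calls kept their sign. This does not hold for the uncalled named members, whose small differences, such as that of HIST1H1C against sgAAVS1, can change sign when a single library is left out. Members with under 20 reads per library have standard errors up to 0.60 and limit what can be seen.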
